A study of Mus musculus with 12 samples.

Results

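The 8 myeloid transcription factor genes Spi1, Cebpa, Cebpb, Cebpd, Cebpe, Gfi1, Irf8 and Klf4 were followed across 12 RNA-seq libraries of mouse bone marrow cells sorted as hematopoietic stem cells (HSCs). They were taken as a named set, with earlier results of these data known, and all 8 were found among the 31272 gene names measured. All 8 also passed the filter on low values in each of 6 comparisons. In irradiated cells (IR), Spi1, Gfi1 and the 4 C/EBP genes were higher than in control cells (Ctrl), whereas Irf8 and Klf4 were lower. In the further irradiated groups Ab_IR and L_IR, Irf8 and Klf4 were higher than in IR, and Spi1 and Gfi1 were lower. Cebpd and Cebpe were lower too, but in Ab_IR not with a term for a split among the libraries that is described below.

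These factors divide the work of myeloid differentiation. Spi1 encodes PU.1, an ETS-family factor needed for granulocytes as well as monocytes, which opposes the erythroid factor GATA1. C/EBPα, from Cebpa, takes progenitors into the granulocyte and monocyte branch. C/EBPε, from Cebpe, drives the later granulocyte steps and the secondary granule genes, while C/EBPβ and C/EBPδ are inducible members of the family. GFI1 is a zinc finger repressor needed for neutrophils. IRF8 directs progenitors to monocytes and dendritic cells, and KLF4 acts in monocyte differentiation.

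The libraries formed 4 groups of 3, namely Ctrl, IR, Ab_IR and L_IR, all of wild-type genotype, and the study's methods name C57BL/6 mice. Cells were collected 3 days after ionizing radiation, which the methods describe as a single total body exposure to γ rays. The age of the mice is not given, and Ab and L are not spelled out in the labels, so both are used as they stand. The methods define HSCs as Lineage-, Sca-1+, c-Kit+, Flt3- and CD34- cells. Nothing states that the libraries of a group came from separate mice, so p-values measure only the spread between these libraries.

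The measured transcripts went against that definition in part. Slamf1, Mecom, Hoxb5, Fgd5 and Tek, which mark HSCs, were among the 14 HSC markers listed and were under 1 FPKM (fragments scaled to transcript length and to the mapped fragments of a library) in every library. Of the markers the sort selects for, Kit held 23.5 ± 2.09 FPKM in Ctrl, 6.87 ± 0.155 FPKM in IR, 18.1 ± 0.838 FPKM in Ab_IR and 17.9 ± 0.0961 FPKM in L_IR (SD, n = 3 each), and Ly6a (Sca-1) ranged from 25.92 to 41.13, 53.66 to 61.47, 35.67 to 41.23 and 45.40 to 45.76 FPKM in the same order. Hlf, which encodes a transcription factor of stem cells, held 1.14 to 2.40 FPKM over all libraries. Mpo, which encodes myeloperoxidase of neutrophil granules, held 2859.28 to 3432.32 FPKM in all libraries. Flt3, against which the sort selects, held 9.13 to 12.07 FPKM in Ctrl, 0.96 to 1.22 FPKM in IR, 7.45 to 7.57 FPKM in Ab_IR and 5.60 to 6.02 FPKM in L_IR. Cd34, also selected against, held 18.99 to 20.65, 3.66 to 3.91, 16.82 to 18.26 and 15.60 to 16.09 FPKM in the same order. In such bulk libraries, fewer cells of a type and less RNA per cell cannot be told apart. The sum of FPKM per library was 344338 to 405123, and the depth in reads is unknown, so no counting interval is given. Among the libraries, Ctrl replicate 1 was unlike the rest, as 44.1% of its gene rows were at 0 against 24.7% to 27.3% in the other libraries. The heart transcript Nppa reached 51.16 to 63.92 FPKM in 5 libraries, the 3 of IR with Ctrl replicates 2 and 3, and 0.00 to 0.26 FPKM in the other 7. This split coincides with the difference of IR from Ab_IR and L_IR except through Ctrl replicate 1, so by the design the split and the group cannot be told apart.

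RefSeq promoter sequences on GRCm38.p6 were matched for 5 of the 8 genes, Cebpa, Cebpb, Gfi1, Irf8 and Klf4. Shown here, 5′ to 3′, are the 250 bases before the start of the genes that fell in IR, Irf8 and Klf4, and of Cebpa, which rose. Irf8 is taken from chr8:120736108-120736357 (plus strand), Klf4 from chr4:55532476-55532725 (minus strand) and Cebpa from chr7:35119043-35119292 (plus strand). Capitals mark words searched on both strands, the PU.1 word GAGGAA, the C/EBP word TTGCNNAA, the interferon response word GAAANNGA, the GFI1 core AAATCA and the KLF word CCNCACCC.
Irf8: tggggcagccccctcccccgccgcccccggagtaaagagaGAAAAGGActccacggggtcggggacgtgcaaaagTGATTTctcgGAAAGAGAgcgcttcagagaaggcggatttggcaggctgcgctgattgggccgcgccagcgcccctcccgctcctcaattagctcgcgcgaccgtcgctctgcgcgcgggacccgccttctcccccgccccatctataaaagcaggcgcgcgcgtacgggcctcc
Klf4: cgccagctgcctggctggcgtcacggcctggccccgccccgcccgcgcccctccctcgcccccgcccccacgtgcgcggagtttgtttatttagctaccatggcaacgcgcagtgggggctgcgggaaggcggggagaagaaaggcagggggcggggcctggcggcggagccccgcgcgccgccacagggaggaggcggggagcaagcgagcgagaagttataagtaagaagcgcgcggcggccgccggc
Cebpa: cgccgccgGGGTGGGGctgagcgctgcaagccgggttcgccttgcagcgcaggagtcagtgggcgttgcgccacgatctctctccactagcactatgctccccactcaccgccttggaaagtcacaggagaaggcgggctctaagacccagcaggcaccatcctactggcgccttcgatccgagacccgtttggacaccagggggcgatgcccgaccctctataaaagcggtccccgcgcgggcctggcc

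The Irf8 window holds the interferon response word at -210 and -165 from the start, on the plus strand, and between them at -175 the GFI1 core on the minus strand. A second RefSeq start of Irf8 holds the same pair of words, at -146 and -226. The Cebpa window holds the KLF word at -242 on the minus strand, and the Klf4 and Cebpb windows hold none of the 5 words. Gfi1 has a pair of RefSeq starts, with the C/EBP word at -143 before one and the interferon response word at -128 before the other. Of 32851 promoter windows of the same length, 18.1% hold the interferon response word, 12.4% the GFI1 core, 9.56% the C/EBP word, 14.9% the KLF word and 23.3% the PU.1 word. A match describes letters only, and neither a match nor its absence shows what binds there.

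Within the libraries, the factors spanned a wide range of levels. Per length of transcript, Spi1 or Cebpe was the highest of the 8 in every library and Cebpb the lowest in all 12. Cebpe made up most of the FPKM of the 4 C/EBP genes, at 61.5% to 70.7% per library. In Ctrl, Gfi1, Klf4, Irf8 and Cebpa lay close together, between 17.94 and 32.79 FPKM. In each IR library, Gfi1 and Cebpa lay above Cebpd, and Klf4 and Irf8 below it.

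**Figure D1:**
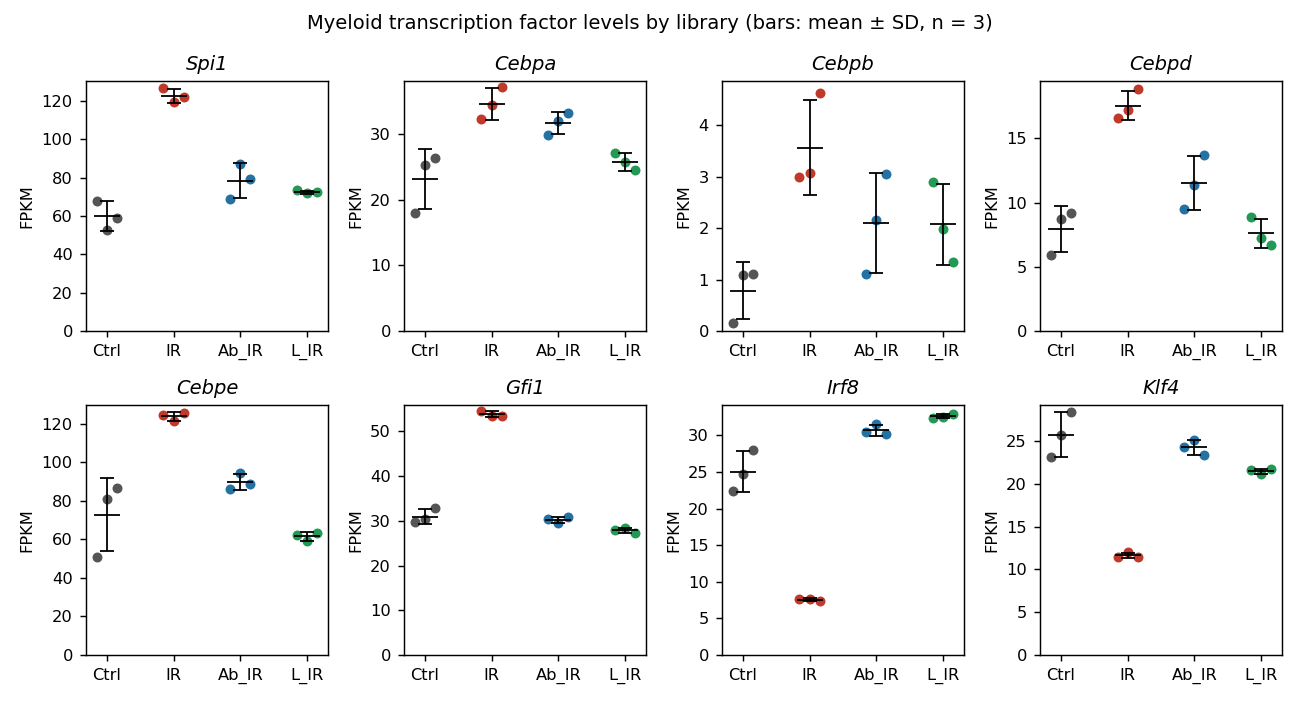
FPKM (y axis, from 0) of the 8 factors in each of 12 libraries, by group (x axis), with points for libraries and bars for the mean ± SD (n = 3). The 3 IR libraries lie apart from Ctrl for all 8 genes, above it for 6 and below it for Irf8 and Klf4.

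IR was set against Ctrl to ask what irradiation changed in the sorted cells. The genes shared by both branches or tied to the granulocyte branch were higher. Spi1 (chromosome 2, 91082390 to 91115756, plus strand on GRCm38) was listed at 68.05, 52.63 and 59.10 FPKM in Ctrl and at 126.62, 119.17 and 121.82 FPKM in IR. It rose from 59.9 ± 7.74 to 123 ± 3.78 FPKM (SD, n = 3 each), with no overlap between the groups. On the log2(FPKM + 1) scale used throughout, which understates the change of low genes, it rose by 1.03 (SE 0.10, limma adjusted p 5.01e-04). Gfi1 (chromosome 5, 107716657 to 107726036, minus strand) was listed at 29.69, 30.33 and 32.79 FPKM in Ctrl and at 54.60, 53.50 and 53.35 FPKM in IR. Its libraries were tight in both groups, and it rose by 0.78 (SE 0.0611, adjusted p 2.18e-04).

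Among the C/EBP genes, Cebpe (chromosome 14, 54710360 to 54712174, minus strand) held 51.04, 80.83 and 86.79 FPKM in Ctrl and 124.83, 121.43 and 125.64 FPKM in IR. Ctrl replicate 1 was the low library, and all IR libraries lay above all Ctrl libraries. The log2 fold change of Cebpe was 0.79 (SE 0.194, adjusted p 0.0178), and 0.56 (adjusted p 1.69e-04) without Ctrl replicate 1. Cebpa (chromosome 7, 35119293 to 35121928, plus strand) held 17.94, 25.22 and 26.37 FPKM in Ctrl and 32.24, 34.39 and 37.10 FPKM in IR. This was the smallest rise of the 6, 0.57 (SE 0.149, adjusted p 0.0221), and 0.41 (adjusted p 0.00273) without Ctrl replicate 1. The calls of Cebpa and Cebpe were lost without any 1 of the IR libraries, with adjusted p of 0.0521 to 0.0826 and 0.0564 to 0.0613. Their log2 fold changes were then 0.52 to 0.62 and 0.78 to 0.81. Cebpa also lost its call with no filter on low values (0.57, adjusted p 0.0533).

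The inducible members were expressed at lower levels. Cebpd (chromosome 16, 15887286 to 15891031, plus strand) was listed at 5.91, 8.69 and 9.22 FPKM in Ctrl and at 16.59, 17.19 and 18.80 FPKM in IR. It rose by 1.07 (SE 0.155, adjusted p 0.00244), and by 0.89 without Ctrl replicate 1, short of a log2 fold change of 1. Cebpb (chromosome 2, 167688915 to 167690418, plus strand) held 0.15, 1.10 and 1.12 FPKM in Ctrl and 2.99, 3.08 and 4.64 FPKM in IR. Its rise of 1.39 (SE 0.274, adjusted p 0.00794) rests on low values, and was 1.10 (adjusted p 0.00167) without Ctrl replicate 1, the lowest of that group at 0.15 FPKM, and 2.33 (adjusted p 0.0278) with a pseudocount of 0.1 FPKM. Cebpb is a single-exon gene and shares 908 bases with Tmem189 on the opposite strand, as Cebpd shares 1808 with Spidr and Gfi1 880 with A430072P03Rik. Irf8 lies over 20337 bases, its whole span, inside the annotated gene Gm20388 on the same strand, which was not analysed here, so strand cannot tell their reads apart. The library kit marks strand, but how strand was used in counting is not given in the sources used here.

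The genes of the monocyte branch moved the other way. Irf8 (chromosome 8, 120736358 to 120756694, plus strand), whose upstream sequence is printed above, was listed at 22.41, 24.75 and 27.99 FPKM in Ctrl and at 7.69, 7.65 and 7.34 FPKM in IR. It fell from 25.0 ± 2.80 to 7.56 ± 0.192 FPKM, which is -1.60 on the log2 scale (SE 0.0893, adjusted p 6.20e-05). Klf4 (chromosome 4, 55527143 to 55532466, minus strand) held 23.16, 25.64 and 28.38 FPKM in Ctrl and 11.39, 11.99 and 11.48 FPKM in IR. It fell by 1.08 on the log2 scale (SE 0.0844, adjusted p 2.18e-04). For both genes, the highest IR library lay below the lowest Ctrl library. Leaving out Ctrl replicate 1 keeps the comparison to libraries with Nppa, and the log2 fold changes were then -1.67 for Irf8 (adjusted p 9.66e-06) and -1.15 for Klf4 (adjusted p 2.57e-05), and 1.12 for Spi1 (adjusted p 2.94e-05) and 0.75 for Gfi1 (adjusted p 5.90e-05).

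In all, 6 members passed an adjusted p of 0.05 as higher in IR, as did 17.5% of the 12072 genes tested, and 2 passed as lower, as did 25.5%. Of the 8, 5 also passed an absolute log2 fold change of 1 (Spi1, Cebpb, Cebpd, Irf8 and Klf4), against 7.60% of all genes. None of the 8 had overlapping values in IR and Ctrl, which held for 58.1% of all genes. The median log2 fold change was 0.79 over the members and -0.05 over all genes tested.

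**Figure D2:**
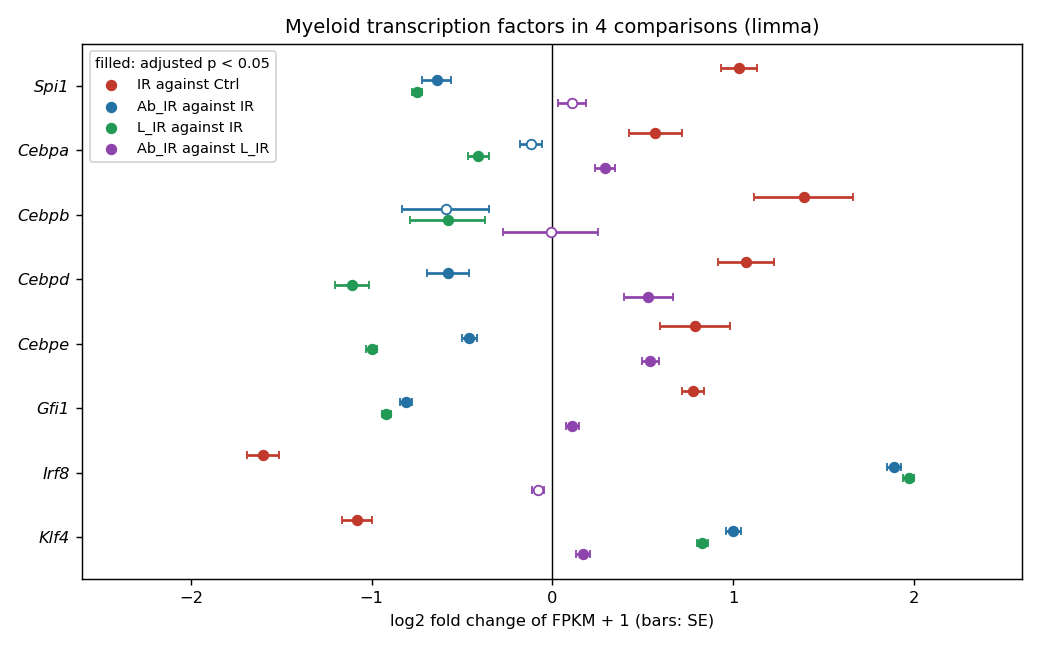
Log2 fold changes of FPKM + 1 (x axis, bars for the SE) of the 8 factors (y axis) in 4 comparisons by limma, filled where the adjusted p is under 0.05. Irf8 and Klf4 lie at -1.60 and -1.08 for IR against Ctrl and on the positive side for Ab_IR and L_IR against IR.

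Within a library, the balance of the granulocyte repressor Gfi1 and the monocyte factor Irf8 can be read as a ratio that does not depend on scaling. It is given as a description with no test, since it was chosen after the values were seen. Gfi1 over Irf8 was 1.17 to 1.32 in Ctrl, 6.99 to 7.27 in IR, 0.94 to 1.02 in Ab_IR and 0.83 to 0.87 in L_IR. Klf4 and Irf8 both fell in IR, but unequally. Klf4 over Irf8 was 1.01 to 1.04 in Ctrl, 1.48 to 1.57 in IR, 0.78 to 0.80 in Ab_IR and 0.65 to 0.66 in L_IR.

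**Figure D3:**
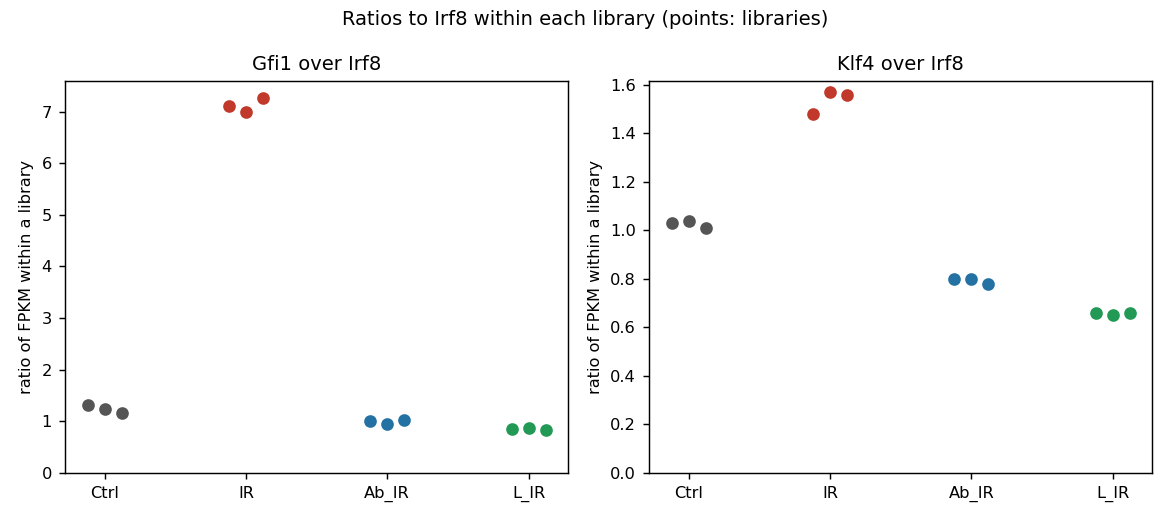
Ratio of the FPKM of Gfi1 (left) and Klf4 (right) to that of Irf8 within each library (y axis, from 0), by group (x axis), with points for libraries. Gfi1 over Irf8 is at most 1.32 outside IR and at least 6.99 in IR.

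The comparisons of Ab_IR and of L_IR with IR ask what those labels add to irradiation. They share the IR libraries, and IR is also part of the comparison with Ctrl, so the values are given side by side. Irf8 was higher in both groups, at 30.44, 31.51 and 30.15 FPKM in Ab_IR and 32.41, 32.53 and 32.91 FPKM in L_IR. Its log2 fold change against IR was 1.89 in Ab_IR (SE 0.0379, adjusted p 6.38e-08) and 1.97 in L_IR (SE 0.0288, adjusted p 2.81e-08). Klf4 held 24.33, 25.07 and 23.38 FPKM in Ab_IR and 21.55, 21.13 and 21.68 FPKM in L_IR. It was higher than in IR by 1.0 (SE 0.0414, adjusted p 1.30e-06) and 0.83 (SE 0.0306, adjusted p 1.14e-06).

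Spi1 and Gfi1 were lower in both groups than in IR. Spi1 held 69.08, 87.14 and 79.25 FPKM in Ab_IR and 73.35, 71.79 and 72.30 FPKM in L_IR, below every IR library. Its log2 fold changes were -0.64 (SE 0.0795, adjusted p 2.71e-04) and -0.75 (SE 0.0279, adjusted p 1.22e-06). Gfi1 held 30.32, 29.51 and 30.75 FPKM in Ab_IR and 27.95, 28.41 and 27.36 FPKM in L_IR. It was lower by -0.81 (SE 0.0327, adjusted p 1.15e-06) and -0.92 (SE 0.0250, adjusted p 3.36e-07) on the log2 scale. Irf8, Klf4, Spi1 and Gfi1 kept these directions and stayed past the threshold with the split by Nppa as a term. For Ab_IR and L_IR against IR the values were then 2.11 and 2.20 for Irf8, 1.21 and 1.04 for Klf4, -0.92 and -1.03 for Spi1, and -0.73 and -0.84 for Gfi1. As the term rests on Ctrl replicate 1 alone among the Ctrl libraries, passing with it does not separate the group from the split.

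The values of the C/EBP genes moved more with that term, which is set by how far Ctrl replicate 1 lies from the other Ctrl libraries. Cebpe, at 86.28, 94.57 and 89.01 FPKM in Ab_IR and 62.16, 59.18 and 63.58 FPKM in L_IR, was lower than in IR with log2 fold changes of -0.46 (adjusted p 5.55e-05) and -1.0 (adjusted p 6.64e-07). Adding it to the fit gave 0.24 (adjusted p 0.0213) for Ab_IR and -0.29 (adjusted p 0.0101) for L_IR. Cebpd held 9.50, 11.38 and 13.68 FPKM in Ab_IR and 8.87, 7.23 and 6.73 FPKM in L_IR. Its log2 fold changes against IR were -0.58 (adjusted p 0.00323) and -1.11 (adjusted p 5.42e-05), and -0.05 (adjusted p 0.849) and -0.59 (adjusted p 0.0383) with that term.

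Cebpa held 29.85, 31.92 and 33.18 FPKM in Ab_IR and 27.14, 25.67 and 24.49 FPKM in L_IR. The Ab_IR libraries overlapped those of IR, and the difference was -0.12 on the log2 scale (SE 0.0612, adjusted p 0.111), whereas L_IR was lower than IR by -0.41 (adjusted p 7.01e-04). With the split as a term these became 0.38 (adjusted p 0.0103) and 0.09 (adjusted p 0.493). Cebpa passed as lower in Ab_IR with median scaling (-0.18, adjusted p 0.0431), without immunoglobulin genes in the scaling (-0.27, adjusted p 0.00437), with the GC trend taken out (-0.33, adjusted p 0.00147) and without IR replicate 1 (-0.17, adjusted p 0.0477). Cebpb was the most scattered member, at 1.11, 2.16 and 3.05 FPKM in Ab_IR and 2.90, 1.99 and 1.34 FPKM in L_IR. Its values against IR were -0.59 (SE 0.242, adjusted p 0.0637) in Ab_IR and -0.58 (SE 0.208, adjusted p 0.0419) in L_IR. In Ab_IR, Cebpb passed as lower with quantile normalization (-0.75, adjusted p 0.0305), without immunoglobulin genes (-0.70, adjusted p 0.0239), with the GC trend taken out (-0.82, adjusted p 0.0104) and without Ab_IR replicate 3 (-0.80, adjusted p 0.0167). In L_IR, its call was lost without IR replicate 2 (adjusted p 0.0587), IR replicate 3 (0.121), L_IR replicate 2 (0.0952) or L_IR replicate 3 (0.109), and with no filter (0.103), limma without trend (0.0508) or all 12 libraries in one fit (0.136). With the split as a term Cebpb was at 0.29 in both comparisons (adjusted p 0.588 and 0.594).

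In Ab_IR against IR, 2 members passed as higher and 4 as lower, against 39.4% and 29.4% of the 12067 genes tested, and 2 passed the fold change threshold, against 7.57%. The groups did not overlap for 6 members, against 73.0% of all genes. In L_IR against IR, 2 members passed as higher and 6 as lower, against 40.8% and 26.0% of 12163 genes, and 2 passed the fold change threshold, against 6.22%. The groups did not overlap for any of the 8, against 71.2% of all genes. Shares near the background are no result about the members. The median log2 fold changes were -0.52 and -0.67 over the members, and 0.06 and 0.07 over all genes tested.

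Ab_IR and L_IR were also set against each other. Cebpe was higher in Ab_IR by 0.54 (SE 0.0471, adjusted p 2.66e-04), Cebpd by 0.53 (SE 0.135, adjusted p 0.0189) and Cebpa by 0.29 (SE 0.0544, adjusted p 0.00627). Klf4 was higher by 0.17 (SE 0.0390, adjusted p 0.0132) and Gfi1 by 0.11 (SE 0.0356, adjusted p 0.0462). Spi1 (0.11, SE 0.0778, adjusted p 0.312), Cebpb (-0.01, SE 0.263, adjusted p 0.990) and Irf8 (-0.08, SE 0.0345, adjusted p 0.0914) did not pass, which does not show that they were alike. Thus 5 members passed as higher, against 18.2% of 12194 genes, and 0 as lower, against 19.8%, while 0 passed the fold change threshold, against 0.533%. The groups did not overlap for 6 members, against 51.9% of all genes. Several of these calls rested on single libraries or on the scaling. Without L_IR replicate 2 only Cebpa and Cebpe passed, and without L_IR replicate 3 only these and Klf4. With libraries rescaled to the sum without immunoglobulin genes, which shifts the median of all genes by -0.12 here and by -0.13 in Ab_IR against IR, Cebpe (0.39, adjusted p 0.00123) and Cebpd (0.40, adjusted p 0.0318) passed. Cebpa (0.15, adjusted p 0.0625), Klf4 (0.03) and Gfi1 (-0.03) then did not, and Irf8 passed as lower in Ab_IR (-0.23, adjusted p 0.00680).

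Against Ctrl, 0 members passed in Ab_IR or in L_IR by limma. In Ab_IR against Ctrl, 1.45% of 12134 genes passed as higher, 0.651% as lower and 0.923% with the fold change threshold. In L_IR against Ctrl these shares were 4.76%, 4.08% and 2.65% of 12251 genes. At an unadjusted p under 0.05 there were 5 members in Ab_IR (Spi1, Cebpa, Cebpb, Cebpd and Irf8) and 4 in L_IR (Spi1, Cebpb, Irf8 and Klf4), against 20.9% and 24.7% of all genes, and limma without trend also passed 0. The largest fold changes were those of Cebpb, 0.80 in both groups. Irf8 stood at 0.29 (adjusted p 0.172) in the former comparison and at 0.37 (adjusted p 0.0513) in the latter. The wide Ctrl group limits these comparisons. In Ab_IR against Ctrl without Ctrl replicate 1, 0 members passed, beside 5.65% of all genes. Spi1 was then at 0.48 (adjusted p 0.0503) and Cebpa at 0.28 (adjusted p 0.0607). Without Ctrl replicate 1, 1254 of 12102 genes passed as higher and 1204 as lower in L_IR against Ctrl, and 4 members passed, namely Spi1 (0.37, adjusted p 0.00804) and Irf8 (0.30, adjusted p 0.0202) as higher and Cebpe (-0.44, adjusted p 0.00320) and Klf4 (-0.32, adjusted p 0.0132) as lower. Without Ctrl replicate 3, Irf8 passed (0.45, adjusted p 0.0274).

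Ordering the groups for each gene, Spi1, Gfi1, Cebpd, Cebpe, Cebpa and Cebpb were highest in IR, and Irf8 and Klf4 lowest. For Irf8 the order from IR upward was Ctrl, Ab_IR and L_IR, with no neighbours outside IR passing the test. For Cebpa, the neighbours IR and Ab_IR did not pass, and neither did L_IR and Ctrl. For Cebpe and Cebpd the order from the top was IR and Ab_IR, followed by Ctrl and L_IR, of which Ab_IR and L_IR each did not pass against Ctrl.

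Genes of the pathway around the factors were described by 5 lists. Their counts stand against the shares of all genes given above, 17.5% higher and 25.5% lower in IR against Ctrl, 39.4% and 29.4% in Ab_IR against IR, 40.8% and 26.0% in L_IR against IR, and 18.2% and 19.8% in Ab_IR against L_IR. Counts for IR against Ctrl without Ctrl replicate 1 stand against 3006 of 11593 genes higher and 3767 lower in that fit. Of 30 partner and opposing factors, 27 were tested in IR against Ctrl, where 4 passed as higher, 15 as lower and 8 did not pass (median log2 fold change -0.38), and 5, 15 and 6 of 26 without Ctrl replicate 1. Gata1, the erythroid factor that opposes PU.1, fell from 37.8 ± 1.02 to 6.41 ± 0.556 FPKM (-2.39, adjusted p 8.69e-06). Gfi1b, the erythroid and megakaryocytic relative of Gfi1, fell from 30.9 ± 2.07 to 5.06 ± 0.775 FPKM (-2.40, adjusted p 3.05e-05), opposite in direction to Gfi1. Nr4a1, a nuclear receptor of patrolling monocytes, was lower by -2.13 (adjusted p 1.23e-05) and Gata2 by -1.51 (adjusted p 3.57e-05). In Ab_IR against IR, 20 of 29 tested were higher and 7 lower, with Gata1 at 2.50, Gfi1b at 2.47, Nr4a1 at 1.75 and Gata2 at 1.55. In L_IR against IR, 15 were higher and 9 lower, with Gfi1b at 2.07, Gata1 at 1.84 and the dendritic cell and monocyte factor Zeb2 at 1.33 as higher, and Klf2 at -1.39 as lower. In Ab_IR against L_IR, 14 were higher and 3 lower. Trib2 passed the filter on low values through Ctrl alone, and Spib, Egr2 and Trib2 through Ab_IR or L_IR alone in the comparisons with IR, so the direction of any call was fixed for them. Without them 4 of 26 were higher and 14 lower in IR against Ctrl, 17 higher and 7 lower in Ab_IR against IR, and 12 higher and 9 lower in L_IR against IR.

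Receptor and phagocyte genes, many of them known targets of PU.1 and the C/EBP factors, were mostly higher in IR. Of 20 tested, 12 passed as higher, 1 as lower and 7 did not pass (median 0.48), and without Ctrl replicate 1 the counts were 12, 3 and 5. Csf2rb, the shared receptor subunit for GM-CSF, rose from 24.0 ± 2.32 to 75.3 ± 0.196 FPKM (1.62, adjusted p 3.84e-05). Csf3r, the G-CSF receptor gene, rose by 0.88 (adjusted p 0.00115) and Ncf1, a subunit of the phagocyte oxidase, by 0.99 (adjusted p 1.53e-04). Csf1r, the macrophage colony-stimulating factor receptor gene, was the member that fell, from 17.0 ± 1.02 to 7.88 ± 0.469 FPKM (-1.02, adjusted p 1.62e-04). Against IR, 4 were higher and 13 lower in Ab_IR, and 2 and 15 in L_IR. Csf2rb was at -1.62 and -1.53 in these comparisons, and Csf1r at 1.23 and 1.28. In Ab_IR against L_IR, 11 were higher and 2 lower.

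Granule genes were listed by stage. Of 7 primary granule genes, 3 were higher in IR than in Ctrl and 4 did not pass (median 0.11), with Ms4a3 at 0.69 (adjusted p 0.0195), and without Ctrl replicate 1 the counts were 3 higher, 2 lower and 2 not past the test. Mpo was at 0.02 (adjusted p 0.894) and Elane, the neutrophil elastase gene, at -0.10 (adjusted p 0.550). C/EBPε is known to drive secondary granule genes as a class, but its part in each gene listed was not tested. Of 10 genes listed as such, 7 were higher, 1 was lower and 2 did not pass (median 1.14), and without Ctrl replicate 1 the counts were 8, 2 and 0. Chil3 rose from 54.6 ± 5.33 to 740 ± 11.8 FPKM (3.74, adjusted p 5.11e-06), Lcn2 by 2.14 (adjusted p 9.78e-05), Mmp8 by 1.81 (adjusted p 1.64e-04) and Cd177 by 1.69 (adjusted p 1.31e-05). In L_IR all 10 were lower than in IR (median -2.73) and all 10 lower than in Ctrl (median -1.62), while Cebpe itself did not pass against Ctrl (-0.20), but did without Ctrl replicate 1 (-0.44, adjusted p 0.00320). In Ab_IR against IR 8 were lower and 2 higher (median -1.46), and in Ab_IR against L_IR all 10 were higher (median 1.71). Itgb2l was under 1 FPKM in L_IR and passed the filter on low values through the other group alone, so its direction was fixed in these 3 comparisons with L_IR, and the other 9 all passed in the direction given. For the primary granule genes, 3 were lower and 1 higher in Ab_IR against IR, 5 lower and 0 higher in L_IR against IR, and 5 higher and 0 lower in Ab_IR against L_IR.

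Of 18 monocyte and dendritic cell genes listed, 15 were tested, of which 2 were higher, 9 lower and 4 did not pass (median -0.43), and without Ctrl replicate 1 the counts were 2, 8 and 1 of 11. Ly6c2, a marker of classical monocytes, fell from 158 ± 14.1 to 35.1 ± 1.94 FPKM (-2.14, adjusted p 2.05e-05). Cd209a (-2.12, adjusted p 6.06e-04) and the plasmacytoid dendritic cell marker Siglech (-1.54, adjusted p 5.77e-04) were under 1 FPKM in IR. Cx3cr1 was lower by -1.01 (adjusted p 4.48e-04). With Clec9a, these are the 4 of the 15 that passed the filter on low values through Ctrl alone, so that only a fall could be tested for them. Of the other 11, 5 were lower in IR and 2 higher. Those higher were Fn1 (15.4 ± 2.74 to 23.8 ± 0.352 FPKM) and F13a1 (53.9 ± 7.31 to 66.6 ± 1.15 FPKM). The dendritic cell genes Xcr1, Zbtb46 and Batf3 were under 1 FPKM in all groups by their means. In Ab_IR against IR 13 were higher and 2 lower, with Cd209a at 2.03 and Ly6c2 at 1.5, and in L_IR against IR 14 were higher and 1 lower, with Cx3cr1 at 1.52 and Ly6c2 at 1.37. The same 4 genes passed the filter through Ab_IR or L_IR alone there, so that only a rise could be tested. Of the other 11, 9 were higher and 2 lower in Ab_IR, and 10 higher and 1 lower in L_IR. In Ab_IR against L_IR 2 were higher, 2 lower and 11 did not pass.

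The lists were also compared with Ctrl. In Ab_IR, 1 partner or opposing factor was higher, 2 secondary granule genes and 1 monocyte or dendritic cell gene were lower, and 0 of 20 receptor and phagocyte genes and 0 of 7 primary granule genes passed. In L_IR, 2 partner and opposing factors were higher and 9 lower, 4 receptor and phagocyte genes and all 10 secondary granule genes were lower, 3 monocyte and dendritic cell genes were higher and 1 lower, and 0 of 7 primary granule genes passed. Of all genes, 1.45% passed as higher and 0.651% as lower in Ab_IR, and 4.76% and 4.08% in L_IR. Without Ctrl replicate 1, 2 partner and opposing factors were higher and 6 lower of 29 in Ab_IR, and 4 higher and 13 lower in L_IR, where 6 of the 7 primary granule genes were lower too. Of all genes, 427 of 11988 were then higher and 250 lower in Ab_IR, and 1254 of 12102 higher and 1204 lower in L_IR.

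**Figure D4:**
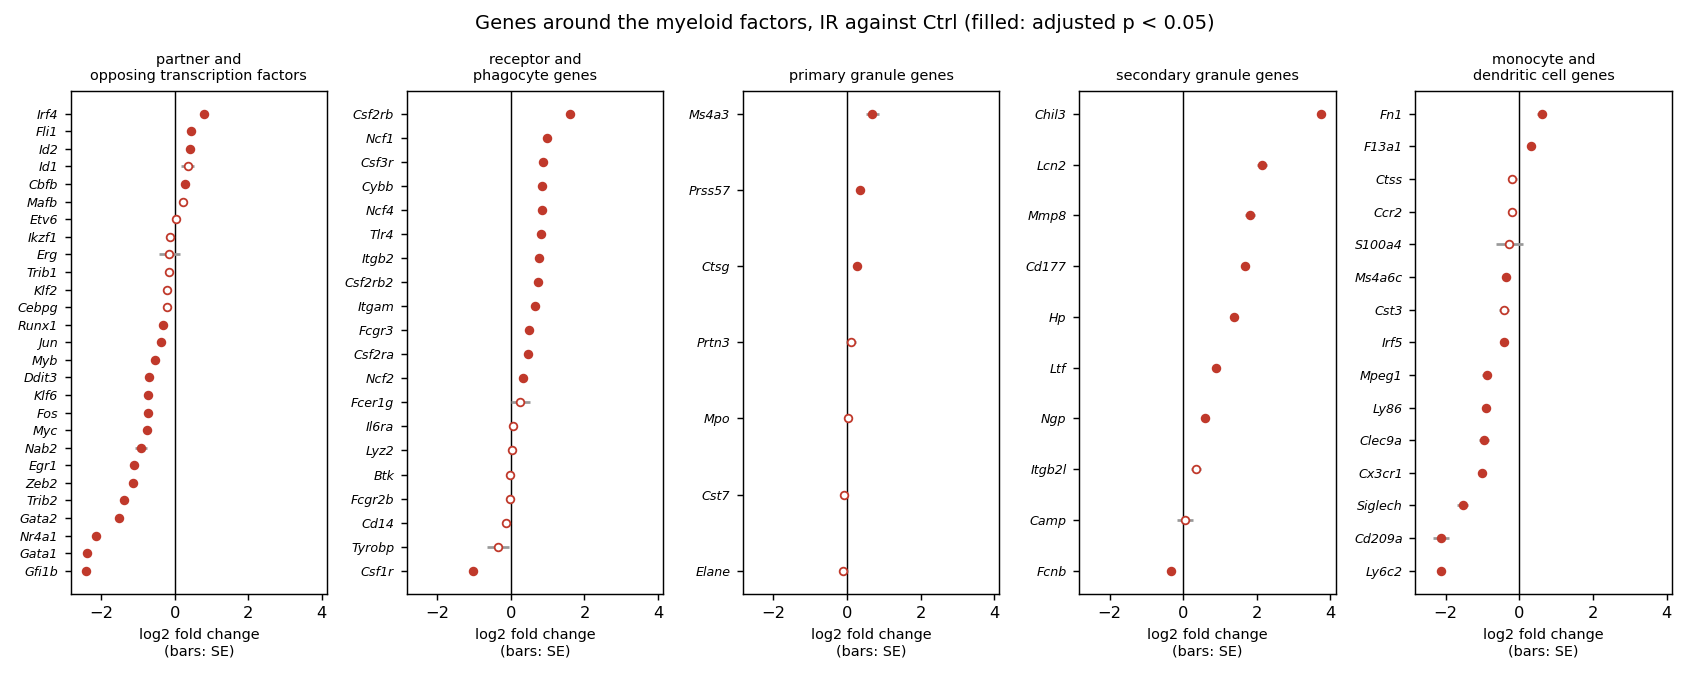
Log2 fold changes of FPKM + 1 for IR against Ctrl (x axis, bars for the SE) of the genes tested in 5 lists around the factors (y axis), filled where the adjusted p is under 0.05. Chil3 lies at 3.74 among the secondary granule genes, and Ly6c2 at -2.14 among the monocyte and dendritic cell genes.

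Markers of other cell types moved with the groups, and their part in the members' changes was not tested. The summed FPKM of 8 mature neutrophil markers was 1514 to 2848 in Ctrl, 5250 to 5770 in IR, 2180 to 2490 in Ab_IR and 987 to 1063 in L_IR. S100a8 and S100a9 held most of it. Of the 8, 4 were higher in IR than in Ctrl and 1 lower, Retnlg (139 ± 32.9 to 53.0 ± 0.397 FPKM), while Ly6g, Il1b and Clec4d did not pass. The summed FPKM of 9 erythroid markers was 3028 to 3655 in Ctrl, 536 to 543 in IR, 3196 to 3343 in Ab_IR and 1597 to 1652 in L_IR, and all 9 were lower in IR than in Ctrl. That of 8 eosinophil markers was 4728 to 6277, 398 to 410, 6794 to 6925 and 2886 to 2914 in the same order, all 8 being lower in IR than in Ctrl. The 7 megakaryocyte and platelet markers summed to 61.1 to 73.6 in Ctrl and 13.2 to 15.4 in IR, the 7 mast cell and basophil markers to 617 to 696 and 228 to 235, and the 11 bone and stroma markers to 185 to 224 and 17.4 to 18.6. All tested members of these 3 lists passed as lower in IR, but 3 of the 7 megakaryocyte and platelet markers and 5 of the 8 bone and stroma markers tested passed the filter on low values through Ctrl alone and could only fall. The 12 macrophage markers summed to 70.2 to 79.9 in Ctrl and 49.7 to 57.5 in IR, 3 being higher, 1 of them (Siglec1) tested through IR alone, and 4 lower. The 7 plasma cell markers summed to 632 to 744 and 994 to 1016, with 6 higher, the 10 B cell markers to 30.2 to 34.4 and 24.7 to 25.2, with 1 of 2 tested lower, and the 9 T and NK cell markers to 167 to 272 and 218 to 225, with 4 of 8 tested lower, or 2 of 6 without Cd3e and Cd4, which were tested through Ctrl alone. The 14 HSC markers summed to 97.5 to 104 in Ctrl and 71.2 to 78.1 in IR, with 1 of 8 tested higher and 6 lower, 2 of the 8 being tested through Ctrl alone. The list holds Cd34 and Flt3, and its other 12 genes summed to 66.4 to 73.6 in Ctrl and 66.4 to 73.5 in IR. These like sums hold opposite changes, as Ly6a was higher in IR and Kit lower by the values given above. In Ab_IR and L_IR, the macrophage markers summed to 77.6 to 85.2 and 70.8 to 80.6, the megakaryocyte and platelet markers to 142 to 146 and 88.5 to 93.3, the mast cell and basophil markers to 810 to 863 and 516 to 539, and the bone and stroma markers to 65.9 to 72.8 and 64.8 to 66.5. The plasma cell markers there summed to 1088 to 1175 and 1467 to 1492, the B cell markers to 43.9 to 44.7 and 46.5 to 47.9, the T and NK cell markers to 283 to 291 and 242 to 251, and the HSC markers to 87.7 to 95.6 and 94.3 to 95.7. No listed marker was at 0 in all 3 libraries of a group.

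The genes whose pattern over the 12 libraries was most like that of each factor were found by Pearson's r of log2(FPKM + 1), limited to genes averaging 10 FPKM or more, as a description. The points share their libraries and groups, and the 3 IR libraries stand apart, so r over the 9 libraries outside IR is given too. Irf8 was most like Csf1r, with r = 0.994 (0.92 outside IR), and most opposed to Ero1l (-0.995, -0.87 outside IR). Gfi1 was most like the decoy receptor gene Il1r2 (0.999, 0.97 outside IR), which held 2.53 to 3.50 FPKM in Ctrl and 41.50 to 43.59 FPKM in IR, and Lipg (0.997, 0.89 outside IR) and Scamp1 (0.995, 0.81 outside IR). Klf4 was most like Trim10 (0.994), Kel (0.991) and Slc14a1 (0.991), which are known from red blood cells and their precursors, at 0.90, 0.87 and 0.86 outside IR. The part of the erythroid marker sums given above in this likeness was not tested. Spi1 was most like Pcyox1l (0.987, 0.99 outside IR) and Actb (0.978, 0.93 outside IR). Cebpe was most like the actin regulator gene Vasp (0.988, 0.98 outside IR) and the cell cycle inhibitor gene Cdkn2d (0.984, 0.96 outside IR), and Cebpd like Atf5 (0.959, 0.87 outside IR) and Vasp (0.958, 0.87 outside IR). Cebpa was most like Tbc1d10b (0.962, 0.97 outside IR) and Cebpb like Tysnd1 (0.966, 0.98 outside IR).

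Between the factors, some pairs changed sign once IR was set aside. Gfi1 and Klf4 had r = -0.92 over 12 libraries and 0.89 over the 9 outside IR, while Irf8 and Klf4 had 0.93 and -0.41. Gfi1 and Irf8 had -0.98 and -0.46, and Cebpd and Cebpe 0.94 and 0.85.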

How the data were processed

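RNA-seq of 12 libraries in 4 groups of 3 was analysed, grouped by their titles. Per the labels, stranded poly(A) libraries were made. The submitters' processing notes name fastp, HISAT2, StringTie and GRCm38/mm10, whereas the study's methods name RSEM and DESeq2; versions for HISAT2 and StringTie are not given in the sources used here. The authors deposited FPKM per gene and library, read as such from the values, since the files name no unit. Values were taken as log2(FPKM + 1), and each pair of groups was compared with limma 3.58.1 in R 4.3.3, using its mean-variance trend. A gene was tested where 3 or more of the fitted libraries reached 1 FPKM, with Benjamini-Hochberg adjustment over all genes tested. FPKM are not counts, so no count test was used. Same-numbered libraries of different groups deviated together with r of -0.27 to 0.21, so they were not paired.

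The members, gene lists, split by Nppa (10 FPKM) and marker lists (mature neutrophil, macrophage, B, plasma, T and NK cell, erythroid, megakaryocyte, mast cell, eosinophil, bone and stroma, HSC) were chosen with earlier results of these data known. Named genes were all members, up to 4 genes with the largest change per list and comparison, and the 3 most alike and the most opposed gene per member; Mpo, Elane, Flt3, Cd34, Ly6a, Kit and Hlf were chosen after their values were seen. Alternatives were another pseudocount (0.1), 2 other filters, 3 other scalings, no trend, 12 libraries in one fit, the replicate block, the split as a term, summed rows, a GC trend taken out (added later) and leaving out each library. The fit was tested on simulated data. Sequences are from RefSeq, and gene positions from GENCODE on GRCm38. Figures were drawn with matplotlib 3.10.9.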

Additional observations from a re-analysis of the deposited data

Results flagged for a closer look

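The change from IR differed between Ab_IR and L_IR for 5 of the 8 factors by the direct test of one group against the other (limma). Cebpe was higher in Ab_IR by 0.54 (adjusted p 2.66e-04), Cebpd by 0.53 (adjusted p 0.0189), Cebpa by 0.29 (adjusted p 0.00627), Klf4 by 0.17 (adjusted p 0.0132) and Gfi1 by 0.11 (adjusted p 0.0462). Of all genes tested, 18.2% passed as higher and 19.8% as lower. Every Ab_IR library lay above every L_IR library for all 5, and the groups did not overlap for 51.9% of all genes. The call of Gfi1 was lost under most alternatives, among them quantile normalization (0.06, adjusted p 0.278), and its value was -0.03 without immunoglobulin genes in the scaling, where Klf4 was at 0.03 and Cebpa at 0.15 (adjusted p 0.0625). Cebpd lost its call with no filter on low values (adjusted p 0.0659). It also did so without Ab_IR replicate 2 (0.0545), L_IR replicate 2 (0.0569) or L_IR replicate 3 (0.0631). With all 12 libraries in one fit, Cebpa (0.121) and Klf4 (0.0930) did not pass. The summed mature neutrophil markers were 2180 to 2490 FPKM in Ab_IR and 987 to 1063 FPKM in L_IR (6 of 8 tested higher, 0 lower), the erythroid sums 3196 to 3343 and 1597 to 1652 FPKM (9 of 9 higher) and the eosinophil sums 6794 to 6925 and 2886 to 2914 FPKM (8 of 8 higher), and their part in these differences was not tested.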

How the results depend on the processing

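Of 864 alternative values for the members, 767 kept their direction and side of the threshold, 39 passed it anew, 38 lost it and 20 turned. The number of members past the threshold in Ab_IR against L_IR was 5. It became 3 with no filter on low values (13.6% of all genes) and 3 without immunoglobulin genes in the scaling (41.9%). With all 12 libraries in one fit it was 2 (20.2%), with the replicate block 3 (28.3%), and leaving out single libraries 2 to 5 (26.8% to 34.4%). In Ab_IR against Ctrl, 0 became 3 with all libraries in one fit and 5 with the split as a term, where 19.3% and 58.8% of all genes passed. In L_IR against Ctrl, 0 became 1 with quantile normalization (9.54% of all genes), 1 with median scaling (8.95%) and 1 without immunoglobulin genes (8.34%). The number was 3 with all libraries (21.9%), 4 with the split (54.3%), 3 with the GC trend taken out (9.71%), and 0 to 4 leaving out single libraries (3.29% to 20.3%). With the split as a term, Cebpa turned to 0.38, Cebpb to 0.29 and Cebpe to 0.24 in Ab_IR against IR, and Cebpa to 0.09 and Cebpb to 0.29 in L_IR against IR. It turned Gfi1 to 0.02 and Klf4 to 0.06 in Ab_IR against Ctrl, and Cebpd to 0.31 and Cebpe to 0.27 in L_IR against Ctrl. In Ab_IR against L_IR, Cebpb turned to 0.03 with quantile normalization and ranged from -0.22 to 0.25 leaving out single libraries (0.25 without Ab_IR replicate 1, 0.18 without L_IR replicate 1), and Spi1 to -0.04 and Gfi1 to -0.03 without immunoglobulin genes. Against Ctrl, leaving out single libraries gave -0.06 to 0.01 for Gfi1 in Ab_IR, -0.00 to 0.26 for Cebpa in L_IR and -0.22 to 0.07 for Cebpd in L_IR, which was at 0.03 without immunoglobulin genes. The cause was not tested. The replicate block also passed Cebpa (adjusted p 0.0311) and Cebpb (0.00635) in Ab_IR against IR and lost Cebpb in L_IR against IR (0.0866); 3 of 12 libraries correlated best with their own number. Fits that leave out a library keep at least 2 a group. Depth is unknown, and 3 libraries a group limit the precision.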
